A study of Mus musculus with 76 samples.

Results

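Solute carrier genes, whose names start with Slc followed by a family number, were described in sorted macrophages of the atrioventricular (AV) node, the conducting tissue between atria and ventricles, in mice. Members were the genes with values in the deposited expression table whose symbol had the form of a solute carrier name, with Slc40a1 and Slc9a9 left out. This gave 114 of 9235 genes, in 43 families, of which 20 families had 1 member and 23 had more. The rule uses the symbol and no measured value of the gene, but the table itself holds only genes above 0 in at least 6 cells. Of the 114, 109 encode transporters or close relatives, and 5 (Slc9a3r1, Slc9a3r2, Slc4a1ap, Slc7a6os and the pseudogene Slc2a4rg-ps) match only by name. Slc9a3r1 and Slc9a3r2, for instance, encode scaffold proteins. None of these 5 was widely detected, which here means above 0 in 50% or more of the cells.

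All cells came from a single group: wild-type (WT) C57BL/6J mice, with no control or treated arm. The AV node region was cut from perfused hearts and digested, and macrophages were sorted as CD45 and CD11b high, F4/80 high and Ly6C low to intermediate cells, per the labels' protocols. Each library was 1 cell captured on a Fluidigm C1 chip, and expression was deposited as CPM, a gene's read count per 1000000 reads of all genes in the table. A pair of nearly identical libraries was counted as 1 cell, so n = 75. The labels name neither animals nor chips, so the 75 cells are 1 sample: shares are given with exact 95% Clopper-Pearson limits, which cover only the sampling of these cells, SDs are between cells, and correlations are descriptions without a p-value. Estimated depth ran from 259548 to 6290918 reads per library (median 2125057), and 2324 to 4382 genes were above 0. All 11 macrophage markers with values (Csf1r, Emr1, Cd68, C1qa, C1qb, C1qc, Ptprc, Itgam, Tyrobp, Mertk and Fcgr1) were widely detected. Of the cardiomyocyte markers 4 had values, Myh6, Tnnt2, Tnni3 and Ttn, and their summed level ran from 0 to 821.8 CPM with a median of 1 CPM. Fibroblast, endothelial, B cell, T cell and neutrophil lists had 1 gene with values each, Gsn, Eng, Cd79b, Lck and Csf3r. Gsn alone of these was widely detected, and at 10 CPM it was not. Of the neuron or Schwann cell markers S100b and Mbp had values; their summed level had a median of 0 and a highest value of 2188.6 CPM, and a rho of 0.328 with the MHC class II score used below.

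Solute carriers move nutrients, metabolites, ions and metals across membranes, either down a gradient or driven by sodium, protons or an exchanged solute. Those at the cell surface supply the macrophage with amino acids, nucleosides, phosphate and zinc. Those of the SLC25 family link the mitochondrial matrix to the cytosol, and others empty the lysosome of what digestion of engulfed material releases. Some act only with a partner: light chains of the SLC7 family pair with the heavy chain Slc3a2 to form the CD98 complexes, and several SLC16 carriers need the chaperones Bsg or Emb to reach the surface.

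The sequences upstream of 5 members are shown because the results turn on them: Slc39a1 and Slc34a2 were the most widely detected, Slc7a8 passed the threshold used below with the resident score, and Slc20a1 and Slc35a5 with the MHC class II score. Each is the 250 bases before a RefSeq transcription start in the build GRCm38.p6, read 5′ to 3′ on the gene's strand. Capitals mark letters matched, on either strand, by any of the motifs searched. The E-box was searched as CACGTG, which reads the same on both strands. A GC box was searched as GGGCGG. For the core promoter motif named after its T and A letters, the search was for TATAAA. Matches were counted at every position and may overlap.
Slc39a1: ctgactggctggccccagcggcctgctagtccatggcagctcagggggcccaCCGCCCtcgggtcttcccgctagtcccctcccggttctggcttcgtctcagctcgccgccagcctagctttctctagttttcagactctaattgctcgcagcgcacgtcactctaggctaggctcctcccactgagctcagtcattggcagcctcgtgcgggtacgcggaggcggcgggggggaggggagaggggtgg
Slc34a2: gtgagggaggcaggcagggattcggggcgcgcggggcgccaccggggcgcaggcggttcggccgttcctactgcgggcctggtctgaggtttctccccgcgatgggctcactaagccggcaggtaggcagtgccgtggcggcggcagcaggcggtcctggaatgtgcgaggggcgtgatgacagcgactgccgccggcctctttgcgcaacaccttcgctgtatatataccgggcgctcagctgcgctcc
Slc7a8: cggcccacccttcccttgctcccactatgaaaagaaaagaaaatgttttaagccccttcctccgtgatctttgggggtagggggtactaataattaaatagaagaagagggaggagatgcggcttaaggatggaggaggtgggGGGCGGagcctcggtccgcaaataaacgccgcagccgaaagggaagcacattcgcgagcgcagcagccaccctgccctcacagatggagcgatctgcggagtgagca
Slc20a1: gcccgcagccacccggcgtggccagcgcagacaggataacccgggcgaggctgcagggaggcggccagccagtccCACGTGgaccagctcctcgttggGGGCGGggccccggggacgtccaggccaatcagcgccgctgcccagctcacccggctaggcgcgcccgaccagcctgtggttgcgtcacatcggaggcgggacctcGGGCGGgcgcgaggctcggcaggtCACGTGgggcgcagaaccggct
Slc35a5: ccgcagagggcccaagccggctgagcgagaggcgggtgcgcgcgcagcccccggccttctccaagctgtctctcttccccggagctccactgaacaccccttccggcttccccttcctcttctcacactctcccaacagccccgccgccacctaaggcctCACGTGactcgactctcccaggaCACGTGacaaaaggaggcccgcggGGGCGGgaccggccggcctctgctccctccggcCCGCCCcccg
The windows lie at chr3:90247942-90248191 on the plus strand for Slc39a1, chr5:53049103-53049352 on the plus strand for Slc34a2, chr14:54781887-54782136 on the minus strand for Slc7a8, chr2:129198523-129198772 on the plus strand for Slc20a1 and chr16:45158674-45158923 on the minus strand for Slc35a5. Slc20a1 has another listed start, whose window holds no E-box.

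The solute carriers were less widely detected than the table as a whole. The share of wide detection was 13.2%, or 15 of the 114 members, against 23.9% of all genes. The median member was above 0 in 16 cells and the median gene in 20. With a floor of 10 CPM the counts were 7 members, or 6.14%, against 8.88% of all genes, and after thinning every cell to 250000 reads they were 10 members, or 8.77%, against 13.2%. A share of 90% of the cells was reached by Slc39a1, Slc34a2, Slc25a5 and Slc6a6, or 3.51% of the members, against 5.06% of all genes. At the other end 65 members (57%) were above 0 in fewer than 25% of the cells, against 46.6% of all genes, and 15 of them (13.2%) in only 6 or 7 cells, against 9.57%. A cell held 33.5 ± 6.76 members above 0 (SD, n = 75; lowest 17, median 32, highest 48). This number rose with the genes detected per cell, with a Spearman rho of 0.741. The summed level of the members was 0.759% ± 0.337 of all CPM (lowest 0.171%, median 0.730%, highest 1.62%) and had a rho of 0.0247 with the genes detected. For 48 of the 114, or 42.1%, at least 50% of the gene's CPM over all cells lay in 1 cell, against 29.1% of all genes.

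**Figure D1:**
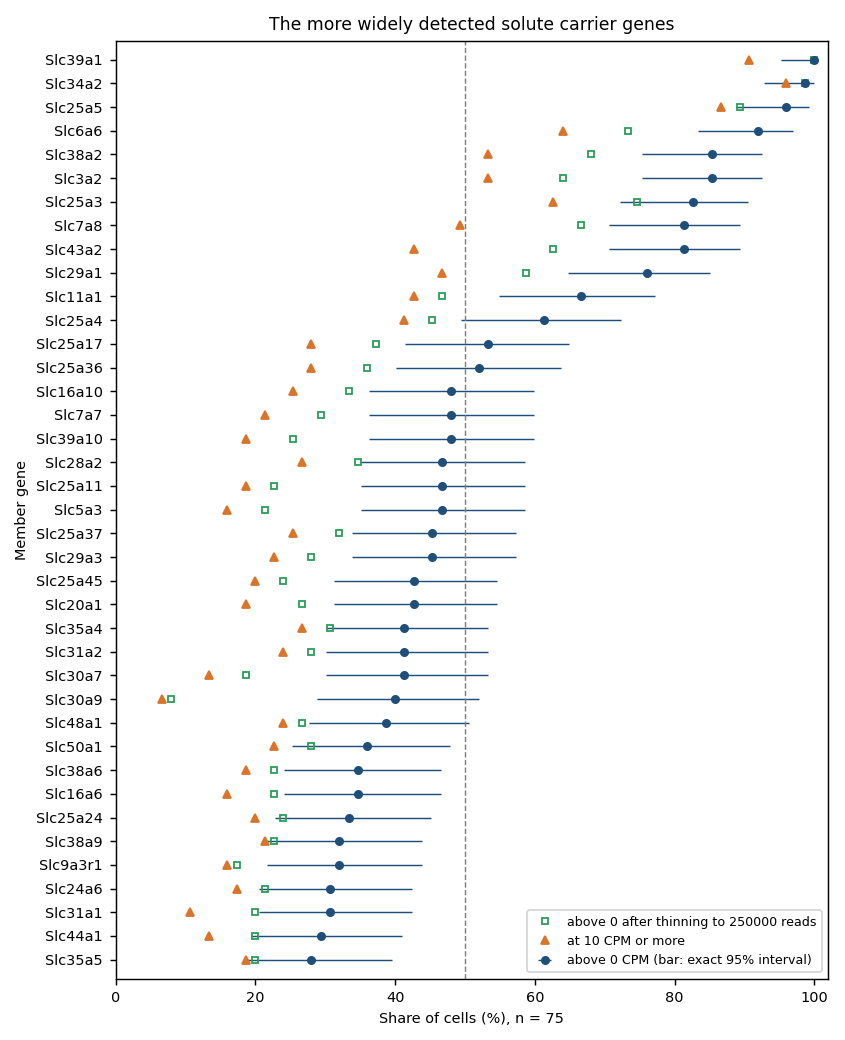
Share of the 75 cells in which each of the more widely detected solute carrier genes reported here was above 0 CPM (circles, with exact 95% intervals), reached 10 CPM (triangles) or was above 0 after thinning to 250000 reads (squares). Slc39a1, Slc34a2 and Slc25a5 stay above 80% by all 3 measures, whereas Slc11a1, in 50 cells above 0, falls below the dashed line at 50% by the other measures.

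The most widely detected member was Slc39a1, which encodes the zinc importer ZIP1. It was above 0 in 75 of 75 cells (lower bound 95.2%), at 10 CPM or more in 68, and ran from 1.1 CPM in the lowest cell over a median of 93.3 CPM to 663.1 CPM in the highest. No cell was without it, and its mean was 143 ± 143 CPM (SD, n = 75). Its coefficient of variation (SD divided by mean) of 1.00 was the 47th lowest of the 1800 genes with a mean from 100 to 1000 CPM, a band whose median was 2.37, so it was among the more even genes of its level. A processed pseudogene, Slc39a1-ps, is 97.7% identical over 973 bases, so reads could be shared with it. Its level had a rho of -0.0374 with the resident score and -0.132 with the MHC class II score described below.

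Slc34a2, which encodes the sodium phosphate transporter NaPi-IIb, known chiefly from lung and intestinal epithelium, was the most even member. It was at 0 in 1 cell, at a median of 35.0 CPM and at 106.5 CPM in the highest cell, and it reached 10 CPM in 72 cells. Thinning to 250000 reads left it above 0 in 74 cells. Its coefficient of variation (21.0 over 39.4 CPM) was 0.531. That was the lowest of the 5165 genes with a mean from 10 to 100 CPM, a band whose median was 4.44. The next lowest genes of the band were Gm7618, Rpl37, Gm6977, Gm10736, Oaz1 and Rpl26, most of them ribosomal protein genes or predicted genes without a name. The level of Slc34a2 had a rho of 0.335 with estimated depth, 0.0890 with the genes detected, 0.0775 with the resident score and -0.177 with the MHC class II score, and -0.294 with the summed S100b and Mbp. Among the annotated transcripts no other gene shares 200 bases with it at 90% identity, and no exon of another gene overlaps it. Per kilobase of its longest transcript it was low, at 9.45 CPM, against 60.4 CPM for Slc39a1. Why so low a level was so even was not tested.

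**Figure D2:**
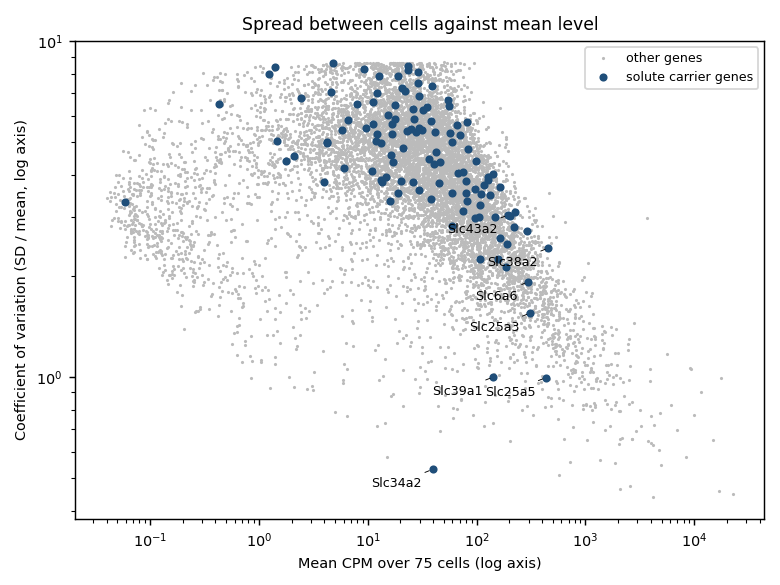
Coefficient of variation over 75 cells against mean CPM for every gene (both axes logarithmic), with solute carrier genes as large points. Slc34a2, at a mean of 39.4 CPM and a coefficient of 0.531, lies below every gene of similar level, whereas most members lie within the cloud of other genes.

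Transporters of amino acids formed the group with the most widely detected members at the cell surface. Of 16 members 5 were widely detected, where 23.9% of all genes were, and the group took 0.172% ± 0.173 of all CPM (n = 75). Slc6a6, the taurine transporter, was above 0 in 69 cells and ran from 0 over a median of 22.6 CPM to 2839.4 CPM. Slc38a2, the sodium-coupled neutral amino acid transporter SNAT2, was above 0 in 64 cells, with a median of 12.0 and a highest value of 5938.5 CPM. In both genes the mean (298 ± 574 and 458 ± 1109 CPM) stood far above the median, so a minority of cells carried most of the transcript. Slc38a2 reached 100 CPM in 21 cells and Slc6a6 in 28.

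CD98 was represented by its heavy chain and several light chains. Slc3a2, the heavy chain, was above 0 in 64 cells (85.3%, 75.3 to 92.4%), with a median of 18.4 and a highest value of 2226.1 CPM. Slc7a8, the light chain LAT2 for large neutral amino acids, was above 0 in 61 cells, with a median of 8.7 and a highest value of 2502.9 CPM. At these counts most cells had to hold both, and 52 did. Slc7a7, the light chain y+LAT1 that exports cationic amino acids, was above 0 in 36 cells, and its exon overlaps one of Oxa1l on the opposite strand by 232 bases. Slc7a11, the light chain of the cystine importer xCT, was above 0 in 8 cells, reached 10 CPM in 1, and shares stretches of over 90% identity with tubulin genes, so its few reads are uncertain. Slc7a5 and Slc7a6 are not analysed here. From cell to cell the heavy chain and its partners had correlations near 0: rho over 75 cells was -0.00484 with Slc7a7 and -0.0158 with Slc7a8, and the 2 light chains had a rho of 0.0718 with each other. In the 37 cells with fewer and the 38 with more genes detected, rho of Slc3a2 with Slc7a8 was 0.104 and -0.140. Slc43a2, which encodes the facilitative carrier LAT4, does not need the heavy chain. It was above 0 in 61 cells, with a median of 5.2 and a highest value of 3989.6 CPM. A transcript on the opposite strand, Gm45606, overlaps Slc43a2 by 672 bases.

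**Figure D3:**
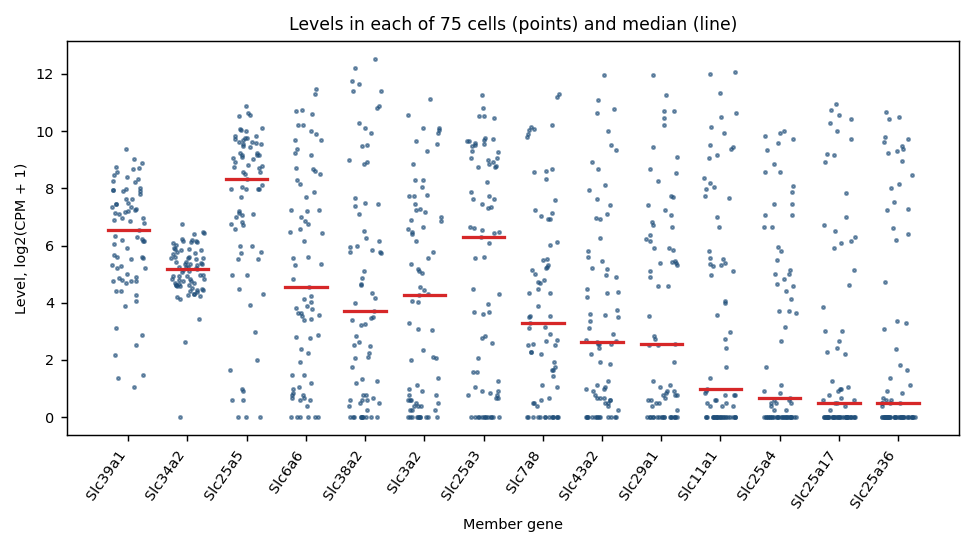
Level of the widely detected members reported here, as log2(CPM + 1), 1 point per cell, with the median as a line. The points of Slc34a2 are packed around the median, those of Slc25a5 mostly lie high with a few cells near 0, and from Slc11a1 on the medians lie at or below 1 while single cells reach 10 or more.

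Mitochondrial carriers made the largest family. SLC25 had 18 members, 5 of them widely detected where 23.9% of all genes were, and took 0.182% ± 0.141 of all CPM. Slc25a5, the ADP/ATP carrier ANT2, was above 0 in 72 cells and ran from 0 over a median of 317.7 CPM to 1886.2 CPM. Slc25a3, the mitochondrial phosphate carrier, was above 0 in 62 cells, with a median of 77.6 and a highest value of 2479.3 CPM. Per kilobase of longest transcript these were the most abundant members, at a mean of 351 CPM for Slc25a5 and 193 CPM for Slc25a3. Slc25a5 has 7 near-identical copies in the annotation, of which the pseudogenes Gm5560 (98.3% over 887 bases) and Gm5529 have values of their own, so its reads may be split or shared. Pseudogenes also match Slc25a3 (Gm13904, 90.1% over 716 bases) and Slc25a36 (Gm13217, 99.6% over 544 bases). Slc25a4, the ADP/ATP carrier ANT1 that prevails in heart and skeletal muscle, was above 0 in 46 cells with a median of 0.6 and a highest value of 1032.4 CPM. ANT2 thus stood above ANT1 by 351 to 56.3 mean CPM per kilobase. Slc25a4 had a rho of 0.232 with the summed cardiomyocyte markers, whose part in its level was not tested. Slc25a17, the peroxisomal member of the family, was above 0 in 40 cells (highest 1958 CPM), and Slc25a36, a pyrimidine nucleotide carrier, in 39 (highest 1611.7 CPM). Others were sparser: Slc25a11, which exchanges oxoglutarate and malate, was above 0 in 35 cells and the iron importer mitoferrin, Slc25a37, in 34. The citrate carrier Slc25a1 was above 0 in 12. Across the 16 members above 0 in at least 8 cells the mean pairwise rho was 0.00459, against 0.0106 over all pairs of members.

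Metal transporters numbered 20. Beside Slc39a1, only Slc11a1 was widely detected, where 23.9% of all genes were. Slc11a1 encodes NRAMP1, the divalent metal transporter that withholds metals from microbes in the phagosome. It was above 0 in 50 cells, with a median of 1.0 and a highest value of 4341.6 CPM, and at 10 CPM in 32. Where it was above 0 its median was 39.7 CPM, and its mean of 124 CPM per kilobase was the third highest of the 15 widely detected members. Its relative Slc11a2, the iron importer DMT1, was above 0 in 11 cells. The processed pseudogene Gm4829 is 93.9% identical to Slc11a1 over 588 bases. Of the 8 members of SLC39, the zinc importers, the next after Slc39a1 was Slc39a10 in 36 cells, and the others lay between 6 and 13. The 6 members of SLC30, which move zinc out of the cytosol, were led by Slc30a7 and Slc30a9 in 31 and 30 cells. Slc30a7 overlaps a transcript on the opposite strand by 1165 bases, and Slc30a9 reached 10 CPM in only 5 cells. The copper transporters Slc31a2 and Slc31a1 were above 0 in 31 and 23 cells. Slc41a2 and Slc41a3, of a family of magnesium transporters, had the highest rho of any family with more than 1 member tested, 0.352, but rest on 12 and 10 cells.

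Among carriers of nucleosides and peptides, Slc29a1 led. It encodes ENT1, which takes up adenosine and other nucleosides by facilitated diffusion, and was above 0 in 57 cells, with a median of 4.9 and a highest value of 4015.4 CPM. The sodium-coupled nucleoside carrier Slc28a2 was above 0 in 35 cells and the lysosomal Slc29a3 in 34. Slc29a1 varied with Slc6a6, with a rho of 0.389 over 75 cells, 0.443 where fewer genes were detected and 0.320 where more were. With Slc29a1 above 0 in 57 cells and Slc6a6 in 69, most cells had to hold both, and 52 did.

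Of 14 carriers of the endosome and lysosome only Slc11a1 was widely detected, where 23.9% of all genes were. None reached that share of cells at 10 CPM, where 8.88% of all genes did, or after thinning. Together they took 0.0825% ± 0.120 of all CPM. The haem exporter Slc48a1 was above 0 in 29 cells, the arginine sensor Slc38a9 in 24, the peptide and histidine carriers Slc15a4 and Slc15a3 in 20 and 17, and the sialic acid exporter Slc17a5 in 12. Of the vacuolar proton pump, which sets the gradient these carriers use, 11 of the 15 subunits with values passed 50% of the cells above 0, and 8 did so at 10 CPM. The difference between these lists was not tested. Atp6ap1 was above 0 in 75 cells and Atp6v0b in 72. Of 8 genes with values for sensing amino acids at the lysosome, Lamtor2, in 62 cells, was the only one to reach 50%.

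Sugar and monocarboxylate carriers had 11 members and none above 0 in 50% of the cells, where 23.9% of all genes were. Slc16a10, a carrier of aromatic amino acids within the monocarboxylate family, was above 0 in 36 cells, the myo-inositol carrier Slc5a3 in 35, Slc50a1 in 27 and Slc16a6 in 26. Slc5a3 reached 10 CPM in 12 cells but 3209 CPM in its highest. The only glucose transporter family member with values was Slc2a9, which carries urate and was above 0 in 6 cells. Of the chaperones of SLC16, Bsg was above 0 in 71 cells and Emb in 29. Emb had a rho of -0.53 with the resident score and 0.53 with the MHC class II score, and Bsg passed 0.3 with neither.

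Ion and pH transporters numbered 13, most of them sparse. Slc24a6, an older name of Slc8b1, the mitochondrial sodium calcium exchanger, was above 0 in 23 cells, and Slc8a1, the sodium calcium exchanger of the plasma membrane, in 12. Of the sodium pump, which maintains the gradient that many carriers spend, 4 subunits had values and Atp1b3 alone, in 56 cells, reached 50%. The remaining groups were sparse. The choline carrier Slc44a1 was above 0 in 22 cells, the folate carrier Slc46a1 in 20, the vitamin C carrier Slc23a2 in 17, the fatty acid carrier Slc27a4 in 17 and the urea carrier Slc14a1 in 11. Of 8 carriers with values whose symbols lack the form asked of members, 3 were widely detected, where 23.9% of all genes were. Ucp2, a mitochondrial uncoupling protein homologue, was above 0 in 75 cells at 1565 ± 1623 CPM. The organic anion carrier Slco2b1 was above 0 in 59 and Mfsd1 in 40.

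Cells were then ordered by a resident score of 16 genes, such as Lyve1, Folr2, Timd4 and F13a1, and by an MHC class II score of 10 genes, such as H2-Aa and Cd74. Each score is the mean of standardised log2(CPM + 1) values. The scores ran against each other, with a rho of -0.567 over 75 cells, and had a rho of -0.0335 and -0.0122 with the genes detected. Few solute carriers followed either. At least 8 cells above 0 were asked for, which 99 members (86.8%) and 90.4% of all genes met. Of these 99, 1 (1.01%) had a rho of 0.3 or more with the resident score, against 2.31% of 8325 genes, and 3 (3.03%) had a rho of -0.3 or less, against 2.1%. With the MHC class II score 2 (2.02%) had a rho of 0.3 or more, against 1.41%, and 1 (1.01%) of -0.3 or less, against 1.6%. The members' shares lay near those of all genes, so nothing particular to solute carriers is read from these counts. The summed level of all members had a rho of 0.148 with the resident and -0.145 with the MHC class II score. All these correlations share the cells, their depth and the scaling to CPM.

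**Figure D4:**
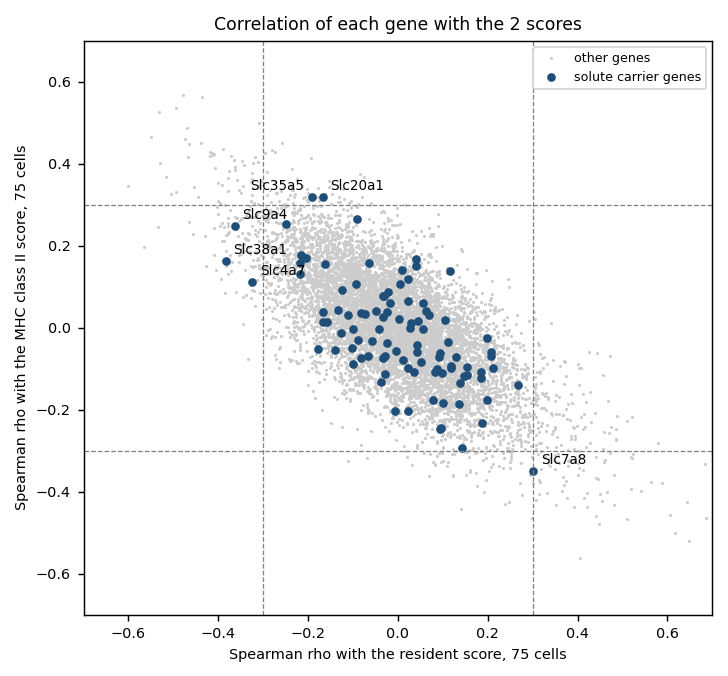
Spearman rho of each gene with the resident score (x axis) and the MHC class II score (y axis) over 75 cells, for genes above 0 in at least 8 cells, with solute carrier genes as large points and dashed lines at 0.3 and -0.3. The 6 labelled members lie beyond a line but no farther than -0.383 and 0.319, and Slc7a8 alone passes a line on both axes.

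Slc7a8 was the 1 member that followed the resident genes. Its rho was 0.302 with the resident score and -0.351 with the MHC class II score, with a Pearson r of 0.323 and -0.313. Divided by genes detected, the poorer and the richer set of cells gave 0.217 and 0.355 for the resident and -0.314 and -0.401 for the MHC class II score, so both signs held in both sets. The value lies barely past 0.3 and fell to 0.294 on the log2(CPM + 10) scale and to 0.266 with values below 10 CPM set to 0. Its rho with MHC class II was -0.258 with values below 10 CPM set to 0 and -0.253 against H2-Aa alone. Slc43a2, the other carrier of large neutral amino acids, had a rho of -0.294 with the MHC class II score, just under the threshold. Csf3r, the neutrophil marker with values, had a rho of 0.290 with Slc7a8, and its part in the result was not tested.

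The members past 0.3 with the MHC class II score were Slc20a1 and Slc35a5, and neither passed against H2-Aa alone, with a rho of 0.212 and 0.265. Slc20a1 encodes PiT1, the sodium phosphate importer of most cell types. It was above 0 in 32 cells, at 10 CPM in 14 and at 3944 CPM in the highest, with a median of 0. Its rho with the MHC class II score was 0.318, or 0.325 and 0.299 in the poorer and the richer set. It had a rho of -0.228 with the summed macrophage markers, which had one of -0.442 with the score, and their part was not tested. On the opposite strand, 9830144P21Rik, which has values of its own, overlaps Slc20a1 by 320 bases, and Gm4430 by 229 bases. Without strand, reads from within these stretches cannot be assigned to either gene. Slc35a5, of the nucleotide sugar carrier family of the Golgi, was above 0 in 21 cells, of which 12 exceeded 100 CPM, and reached 1899.1 CPM. Its rho was 0.319, with 0.291 and 0.323 in the same sets, and 0.209 with values below 10 CPM set to 0. It also had a rho of -0.324 with the summed cardiomyocyte markers, which themselves had a rho of 0.448 with the resident and -0.249 with the MHC class II score. With the summed neuron or Schwann cell markers its rho was 0.209. The part of either list in the result was not tested. The phosphate transporters thus differed in pattern: Slc34a2 was even in nearly all cells, and Slc20a1 was above 0 in fewer cells and past 0.3 with the MHC class II score.

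**Figure D5:**
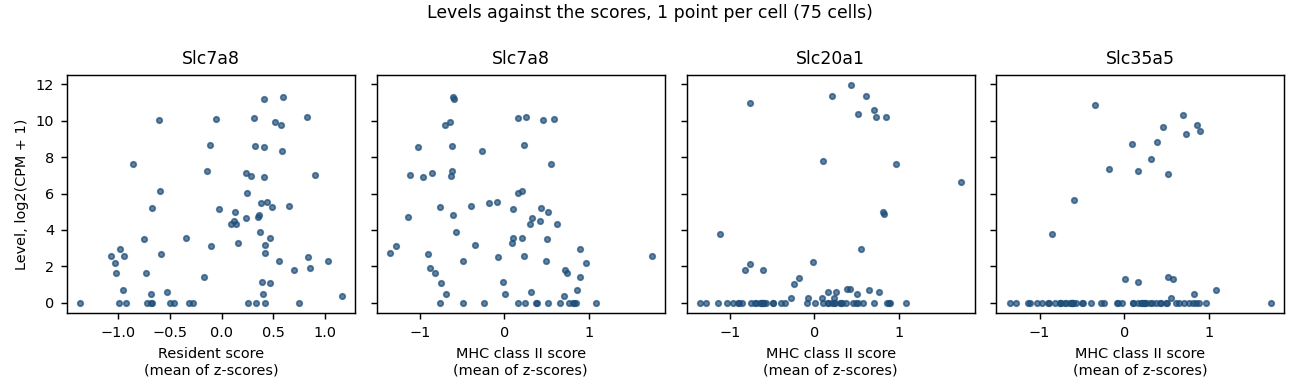
Level of Slc7a8, Slc20a1 and Slc35a5 as log2(CPM + 1) against the resident or MHC class II score (mean of standardised values), 1 point per cell. Most cells with Slc20a1 or Slc35a5 above 8 on this scale have an MHC class II score above 0, but many cells with such a score have neither transcript.

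Slc38a1, Slc9a4 and Slc4a7 had a rho of -0.3 or less with the resident score. Against Lyve1 alone none of them did, with -0.247, -0.184 and -0.258. Slc38a1, the neutral amino acid importer SNAT1, was above 0 in 18 cells, with a highest value of 630.0 CPM and a rho of -0.383 that was -0.0662 over the 37 cells with fewer genes and -0.587 over the 38 with more. Slc9a4, the sodium proton exchanger NHE4, was above 0 in 11 cells, with a rho of -0.364, or -0.0784 and -0.494 in those sets, and a transcript on the opposite strand overlaps it by 464 bases. Slc4a7, the sodium bicarbonate cotransporter NBCn1, was above 0 in 21 cells, with a rho of -0.324, or -0.383 and -0.303. Of these only Slc4a7 had a like value in both sets, but without the cells in the lowest quartile of genes detected its rho was -0.296, just short of the threshold. With estimated depth, which was not adjusted for, rho was 0.304 for Slc4a7, 0.226 for Slc38a1 and -0.0588 for Slc9a4. With values below 10 CPM set to 0, Slc9a4 had too few cells to be compared. Slc9a4 had a rho of -0.371 and Slc38a1 of -0.225 with the summed macrophage markers, which had a rho of 0.394 with the resident score. With the cardiomyocyte sum Slc4a7 had a rho of -0.256 and Slc9a4 of -0.246, and with the neuron or Schwann cell sum Slc9a4 had 0.298. The part of these markers was not tested. Slc38a1 and Slc4a7 varied together, with a rho of 0.479, 0.364 and 0.526 in the sets with fewer and more genes, and 12 cells held both.

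Pairs of members varied together about as often as pairs of all genes, so nothing particular to solute carriers is read from their count. Of the 4851 pairs of members above 0 in at least 8 cells, 50 (1.03%) had a rho of 0.3 or more, against 0.998% of all gene pairs. The highest was 0.560 for Slc18a2, the vesicular monoamine transporter, and Slc7a2, a cationic amino acid importer, each above 0 in 10 cells and both in 6. Next to Slc38a1 with Slc4a7 stood the zinc carrier Slc30a4 with the sugar phosphate carrier Slc37a2, at 0.467, with 10 cells holding both. Within families the mean pairwise rho of SLC15, the peptide carriers, was 0.195 over 3 members and that of SLC35 was -0.0565 over 4.

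The upstream windows were compared over the 88 members with a listed RefSeq window, counting a motif where any listed window of a gene holds it on either strand. TATAAA was found in none of the 13 matched members that were widely detected. It was found in 8% of the 75 less widely detected members and in 7.95% of the 6223 matched genes of the table. With only 13 genes, this is not read as a difference. Only these exact letters counted, so a stretch such as the tatatata of the Slc34a2 window did not. A window rich in CpG (observed over expected CpG of at least 0.6 and at least 50% G and C) was present in 84.6% of these 13, in 57.3% of the 75 less widely detected members and in 70.5% of the genes of the table. A GC box was found in 76.9%, 69.3% and 64.6%. An E-box, a motif of MITF, TFEB and MYC family factors, was present in 15 of the 88 members, 661 of the 6223 genes of the table and 1854 of the 27025 genes with a listed window. Of the endolysosome members, 18.2% of the 11 matched held one. These are letter matches in short windows and show neither binding nor its absence.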

How the data were processed

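Single-cell RNA-seq libraries of 76 sorted AV node macrophages were analysed from the table in which the authors deposited counts per 1000000 reads (CPM), rounded to 1 decimal, for 9235 genes. Every column summed to 1000000 CPM within rounding, so levels are relative to the genes in the table. STAR 2.3.0 and HTSeq 0.6.0 are the tools, and mm9 the build, in the submitters' processing notes, with an annotation not given in the sources used here. The SMARTer and Nextera XT kits, per the labels' protocols, read whole transcripts without molecular identifiers or strand, so amplified copies of 1 molecule count separately and intervals cover counting of cells only.

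Libraries 13 and 19, correlated at a Pearson r of 0.978 where none of 2849 other pairs exceeded 0.421, were averaged, so n = 75. Depth was estimated from the CPM of 1 read, the largest step of which low values (up to 60 steps) are multiples within 0.051 CPM; at least 97.9% of them were in every library. These depths are estimates that served only to thin cells to 250000 reads and to be correlated with gene levels, and no count model was fitted. The design as written called for 76 cells; the closing section gives the alternative.

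With 1 group and no named animals there was no test between groups. A gene counted as detected above 0 CPM, at 10 CPM, or above 0 after thinning. Correlations were Spearman over cells, for genes above 0 in at least 8 cells, called at 0.3, with log2(CPM + 1) used for scores and Pearson r. Members, roles and gene lists were chosen with earlier results of these data known. Named genes are the members above 0 in at least 50% of cells, those past 0.3 with a score, the widest member of each family with several, the CD98 chains, and partners above 0 in at least 50%; others named, including all pairs other than CD98, were chosen after their values were seen. Doublets were not called. A member that counts in the totals is not reported here by itself. Scripts were tested on simulated data. Lengths, near-identical copies (BLAST 2.17.0, at least 90% identity over 200 bases) and overlapping exons come from GENCODE M21, and upstream windows from RefSeq GRCm38.p6, another build than that of the table, so no coordinates were joined to the data. Of the 37 named members searched for copies, 16 had one, and not every copy or overlap is mentioned above. Analyses used Python 3.11.15, pandas 2.3.3 and scipy 1.17.1.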

Additional observations from a re-analysis of the deposited data

How the results depend on the processing

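The count of 15 members above 0 in at least 50% of the cells became 7 at 10 CPM and stayed within 1.5 times under the other alternatives (15 with all 76 libraries, 10 thinned, 21 without the cells in the lowest quartile of genes detected). The 1 member with a rho of 0.3 or more with the resident score, Slc7a8, became 0 on the log2(CPM + 10) scale and 0 with values below 10 CPM set to 0. Against Lyve1 alone the count was 2, Slc3a2 and Slc7a8. The 3 members at -0.3 or less became 0 against Lyve1 alone and 1, Slc4a7, among genes above 0 in at least 20 cells. They were 2 with values below 10 CPM set to 0 (Slc38a1 and Slc4a7) and 2 without the lowest quartile of genes detected (Slc38a1 and Slc9a4). For the MHC class II score, the 2 members at 0.3 or more became 1, Slc20a1, with values below 10 CPM set to 0 and 0 against H2-Aa alone. The 1 at -0.3 or less became 2, Slc43a2 and Slc7a8, with all 76 libraries. Adjusting for genes detected per cell changed none of these counts, and no named correlation past the threshold changed sign under any alternative. The cause of these shifts was not tested. No paired analysis was possible because there is a single group. Thinning lowered most counts of cells above 0, and whether depth limits the sparse members more than the others was not tested. Every gene in the table is above 0 in at least 6 cells, so carriers found in fewer are not analysed here.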

Other observations

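Slc20a1 and Slc35a5, the members past 0.3 with the MHC class II score, were also the only 2 of the 88 matched members with at least 2 E-boxes in 1 upstream window, as the sequences printed above show. This was noticed after the values were seen. At least 2 E-boxes were present in 1.14% of the genes of the table. Of the 66 such genes that were compared with the score, 2 (3.03%) had a rho of 0.3 or more, and both were these members. Among all 5628 genes with a window the share was 1.53%. Slc20a1 and Slc35a5 did not vary with each other, with a rho of -0.129 over 75 cells and 7 cells holding both.

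Several sparse members were held almost wholly by 1 cell. Slc4a2 had 99.2% of its CPM there, Slc2a9 97.6%, Slc41a3 94.9% and Slc26a11 93.6%, although they were above 0 in 6, 6, 10 and 13 cells. Slc46a2 was above 0 in 8 cells and never exceeded 1.2 CPM. Slc10a1, the bile acid importer known from liver, reached 10 CPM in each of the 8 cells that held it and 319.8 CPM in the highest.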
